A study of Rattus norvegicus with 10 samples.

Results

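The epoxide hydrolase genes Ephx1 and Ephx2 were followed in the nucleus tractus solitarii (NTS) of hypertensive and normotensive rats. Every probe set that the platform's annotation assigned to Ephx1 or to Ephx2 alone was taken. A single probe set answered to each gene, 1369663_at for Ephx2 and 1387669_a_at for Ephx1, so 2 genes of 14217 with a probe set of their own are described. No probe set named either gene among several symbols. The genes were chosen with the strain difference of Ephx2 already known, and their own strain differences are therefore given as descriptions, with an error and an interval but without a test.

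Blood pressure climbs with age in the inbred spontaneously hypertensive rat (SHR). Its usual normotensive counterpart is the Wistar-Kyoto rat (WKY). All rats were male, 10 to 13 weeks old and without a stated treatment, and the NTS, the brainstem nucleus in which baroreceptor afferents end, was dissected as bulk tissue. RNA was hybridised to 5 SHR and 5 WKY Affymetrix Rat 230 2.0 arrays. The design calls each array a biological replicate, while each sample's description speaks of 5 animals, so an array may hold 1 animal or a pool, and the errors below measure the spread between these samples. In bulk tissue, fewer cells of a type and less RNA per cell cannot be told apart. The strains differ throughout the genome, so strain background and blood pressure cannot be told apart.

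Epoxide hydrolases add water to an epoxide ring and give a diol. Ephx2 encodes the soluble epoxide hydrolase, a cytosolic and peroxisomal enzyme that converts epoxyeicosatrienoic acids (EETs), the epoxides that cytochrome P450 enzymes make from arachidonic acid, into less active dihydroxy acids. EETs dilate vessels and dampen inflammation, and the soluble enzyme has been studied for this reason as a drug target in hypertension and in the brain. Ephx1 encodes the microsomal epoxide hydrolase of the endoplasmic reticulum, best known for the detoxification of epoxides of drugs and polycyclic hydrocarbons, which can also hydrolyse EETs.

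Ephx2 was higher on every SHR array than on any WKY array. Its signal was 114.5, 81.6, 117.8, 137.3 and 115.6 on SHR arrays 1 to 5, against 25.3, 17.0, 24.6, 23.5 and 29.3 on WKY arrays 1 to 5. SHR 4 was the highest and SHR 2 the lowest of the SHR arrays, and the lowest SHR value was 2.78 times the highest WKY value. The means were 113 ± 20.1 in SHR and 23.9 ± 4.47 in WKY (SD, n = 5 each), a ratio of mean signals of 4.74. On the scale of log2(signal + 16), on which all differences are given, SHR exceeded WKY by 1.69 ± 0.13 (SE), with a 95% interval of 1.42 to 1.96, which is a 3.22-fold difference on that scale.

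In proportion to these levels, the arrays varied to a similar degree in both strains. The coefficient of variation of Ephx2 was 17.7% in SHR and 18.7% in WKY. Its SD within a strain, pooled over both, was 0.21 log2 units, larger than that of 77.5% of the 10668 genes tested, whose median was 0.15. The strain difference was thus several times the spread between arrays of a strain, although that spread was not small for this gene.

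Ephx1 overlapped between the strains. Its signal was 81.8, 76.3, 98.6, 78.4 and 56.6 on SHR arrays 1 to 5, against 75.7, 66.5, 59.0, 72.6 and 69.5 on WKY arrays 1 to 5. The highest and the lowest of all 10 values, SHR 3 and SHR 5, belonged to the same strain, and the other SHR arrays lay just above the WKY arrays. The means were 78.3 ± 14.96 in SHR and 68.7 ± 6.42 in WKY (SD, n = 5 each), a ratio of 1.14. The difference was 0.14 ± 0.11 on the log2 scale (SE), with a 95% interval of -0.096 to 0.39. The interval includes 0 and reaches to 0.39, so neither a difference nor equality of the strains was shown. The coefficient of variation was 19.1% in SHR and 9.35% in WKY.

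**Figure D1:**
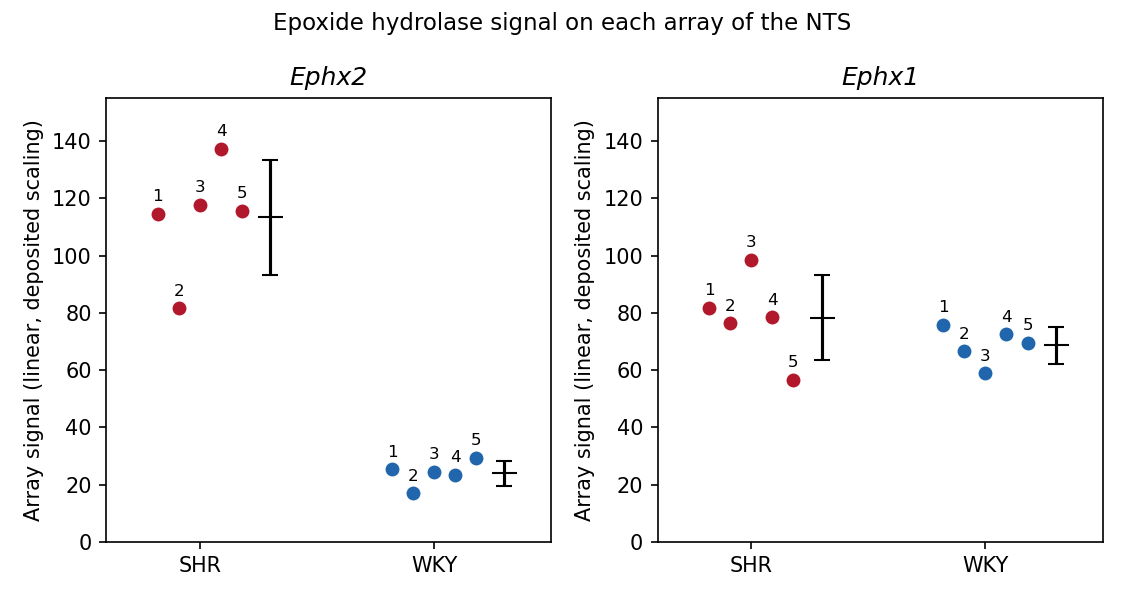
Signal of Ephx2 (left) and Ephx1 (right) on each array, linear scale with the deposited scaling, in SHR (red) and WKY (blue). Numbers are replicate numbers, and the bar beside each group is the mean ± SD of 5 arrays. The 5 SHR values of Ephx2, from 81.6 to 137.3, all lie above the 5 WKY values, from 17.0 to 29.3, whereas those of Ephx1 overlap.

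Read against all genes, the strain difference of Ephx2 stood at rank 3 by increase in SHR and at rank 5 by size in either direction among 10668 genes, each represented by its brightest kept probe set. An increase of at least 1 log2 unit was found for 13 genes and a decrease of that size for 8. Ephx1 stood at rank 2099 by increase. The median difference of all genes was 0.0020. Of 18846 probe sets tested in limma, 4.26% passed a Benjamini-Hochberg adjusted p of 0.05, of all 18846 probe sets 2.06% passing as higher and 2.2% as lower in SHR. The strains did not overlap for 6.13% of probe sets, and for 3.22% all SHR values lay above all WKY values. These shares are the background for the counts of other genes given below. Nothing is read from them about the hydrolases, which were chosen on this contrast.

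**Figure D2:**
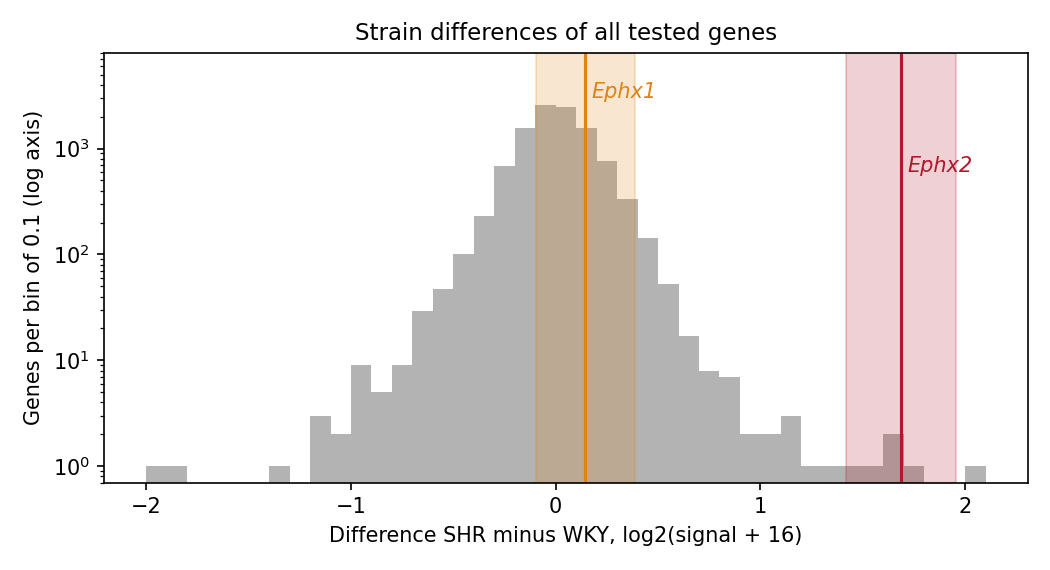
Number of genes (log axis) in each bin of 0.1 of the difference SHR minus WKY on the log2(signal + 16) scale, for 10668 genes. Lines mark Ephx2 at 1.69 and Ephx1 at 0.14, and the shaded bands are their 95% intervals. Ephx2 lies in the sparse upper tail and Ephx1 within the bulk of the genes.

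The size given for Ephx2 depends on the offset added before the logarithm, because its WKY signal was low. The probe set reached the 40th percentile of the array on 5 of 5 SHR arrays and on 1 of 5 WKY arrays, so it entered the tested set through the strain in which it was high. With an offset of 1 the difference was 2.20 ± 0.17, and with 64 it was 1.01 ± 0.078 (SE). Detection calls were not used here, so whether the WKY signal was above background was not judged. Ephx1 reached the percentile on all 5 SHR and all 5 WKY arrays.

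The overall level of the arrays differed somewhat between the strains. SHR arrays had median signals of 44.2 to 49.8, against 39.6 to 45.7 for WKY arrays, despite the shared trimmed mean to which the authors had scaled them. With this median as a covariate, the difference of Ephx2 was 1.83 ± 0.17 and that of Ephx1 0.059 ± 0.15 (SE). Without SHR 2 and SHR 3, the arrays of highest median signal, Ephx2 differed by 1.80 ± 0.13 and Ephx1 by 0.051 ± 0.12. Leaving out 1 array at a time gave 1.62 to 1.79 for Ephx2 and 0.070 to 0.23 for Ephx1, whose value was lowest without SHR 3 and highest without SHR 5.

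**Figure D3:**
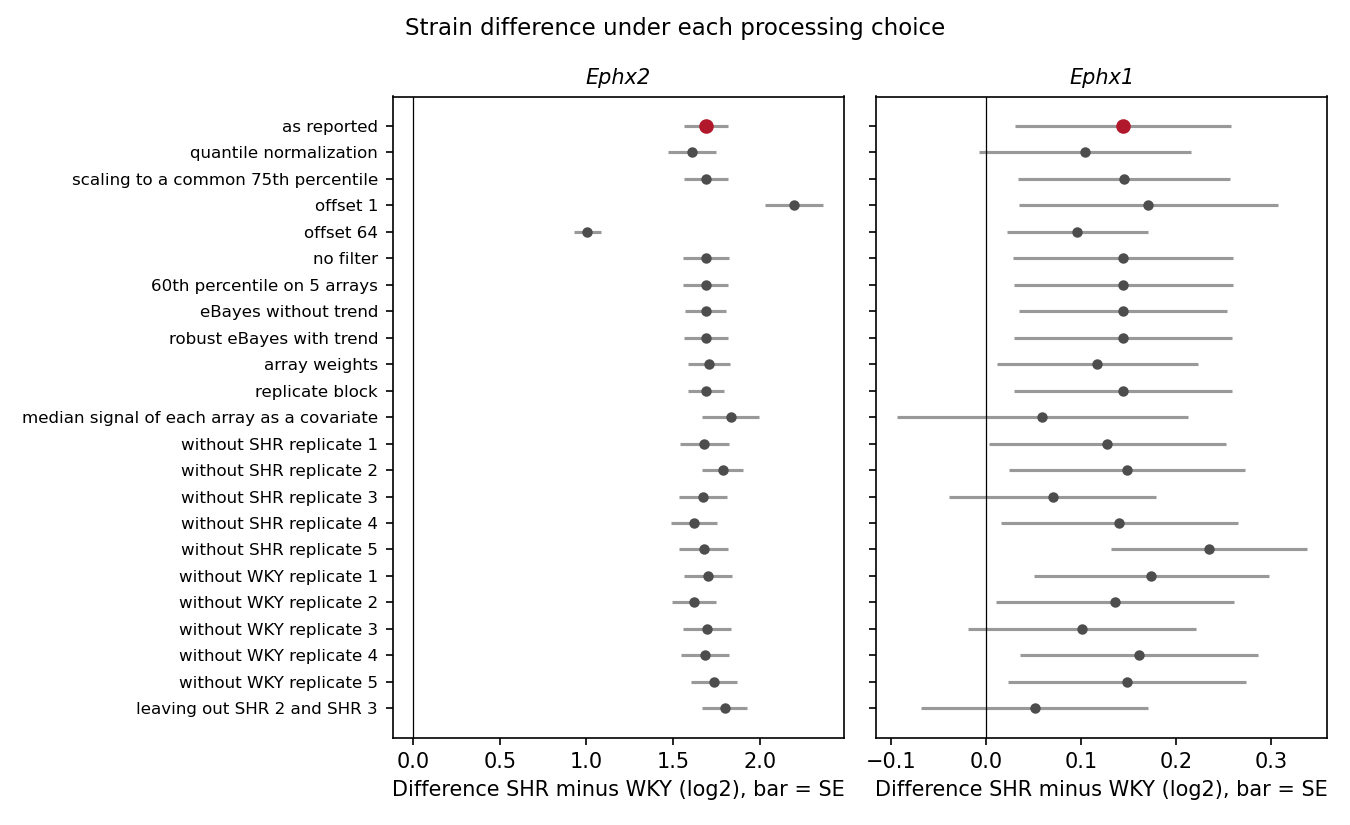
Difference SHR minus WKY (log2) of Ephx2 (left) and Ephx1 (right) as reported (red) and under each alternative. Bars are standard errors, and the horizontal axes of the panels differ. The values of Ephx2 run from 1.01 with an offset of 64 to 2.20 with an offset of 1, and those of Ephx1 from 0.051 to 0.23.

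Within a strain the signals of the hydrolases were weakly correlated. After strain means were removed, the Pearson correlation of Ephx1 with Ephx2 over the 10 arrays was 0.098. It was 0.073 over the 5 SHR arrays and 0.18 over the 5 WKY arrays. These values describe few arrays that share their scaling.

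Cell type markers were read beside these levels, against a background of 3.97% of all genes that passed in limma, 1.67% as higher and 2.31% as lower in SHR. The tissue carried transcripts of NTS neurons in both strains, such as the noradrenergic enzyme genes Th (416 ± 19.1 in SHR, 477 ± 67.8 in WKY) and Dbh (272 ± 28.7 in SHR, 334 ± 51.1 in WKY) and the prolactin-releasing hormone gene Prlh (538 ± 34.4 in SHR, 735 ± 165 in WKY). Of 8 such NTS and caudal brainstem markers tested, Prlh and Hoxb3 were lower in SHR and 0 higher, with sums of 2757 to 3065 in SHR and 3074 to 4127 in WKY. An unadjusted p under 0.05 was found for 5 of these 8, against 20.1% of all genes. Their median difference was -0.23, and 1 of the 8 lay above 0. Hoxb3 passed in 23 of 23 alternatives, whereas the call of Prlh ended in 13 of 23, among them the fits without any 1 SHR array, WKY 2 or WKY 5 (limma adjusted p from 0.0127 to 0.103). Tlx3, a marker of the same list, was too dim to be tested, and no marker was listed at 0.

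In brain, soluble epoxide hydrolase is often described in astrocytes. Of 9 astrocyte markers, 0 passed in limma in either direction and 2 had an unadjusted p under 0.05. Their summed signal was 13469 to 15677 on SHR arrays and 13336 to 14674 on WKY arrays, so the ranges overlapped. The 5 smooth muscle and pericyte markers tested also had 0 calls (1 with an unadjusted p under 0.05), with sums of 279 to 358 in SHR and 244 to 300 in WKY. Among 10 neuron markers Snap25 was higher and 0 lower (sums of 14905 to 16290 in SHR and 13318 to 15227 in WKY). The call of Snap25 ended in 15 of 23 alternatives, among them the fits without SHR 2, SHR 3, SHR 4, WKY 1, WKY 2, WKY 4 or WKY 5 (limma adjusted p from 0.00868 to 0.584). Among 8 oligodendrocyte markers Mobp was lower and 0 higher (8075 to 10087 in SHR and 7684 to 9975 in WKY). An unadjusted p under 0.05 was found for 3 of them. Only Mbp had a difference above 0 (4146 ± 564 in SHR, 3403 ± 406 in WKY, 0.28 ± 0.094, limma adjusted p = 0.0992). Among 9 endothelial markers Vwf was lower and 0 higher (1161 to 1328 in SHR and 1205 to 1274 in WKY), and 2 had an unadjusted p under 0.05. Pecam1 was higher without passing (43.6 ± 7.38 in SHR, 29.1 ± 3.59 in WKY, 0.40 ± 0.13, limma adjusted p = 0.0851). The strains did not overlap for Pecam1, as for 5.76% of all genes. The Mobp call rests on a probe set that differed by -0.34, while other probe sets of the gene differed by -1.41 and -0.022. The call of Vwf ended in 3 of 23 alternatives, among them the fit without WKY 5 (limma adjusted p from 0.00809 to 0.206).

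Of the marker lists, only those of the NTS and of microglia had sums that did not overlap between the strains. The NTS sums lay close, reaching 3065 in SHR and starting at 3074 in WKY. Of 9 microglia and macrophage markers, Aif1, C1qa, C1qb, Ctss and Lyz2 were lower in SHR and 0 higher, with sums of 2239 to 2336 in SHR and 2707 to 3002 in WKY. The other 4 did not pass. Only Cx3cr1 lay above 0 (45.1 ± 12.4 in SHR, 37.0 ± 7.03 in WKY, 0.19 ± 0.15, limma adjusted p = 0.510). A dimmer probe set of Aif1 differed by 0.51 in the other direction without passing, and with the mean of its probe sets the call of Aif1 ended (limma adjusted p = 0.976). Of 5 choroid plexus markers, Enpp2 and Sostdc1 were higher and 0 lower, with overlapping sums of 966 to 1115 in SHR and 724 to 983 in WKY. All 5 lay above 0, with a median difference of 0.28, and 3 had an unadjusted p under 0.05. The call of Enpp2 ended in 10 of 23 alternatives, among them the fits without SHR 1, SHR 3, SHR 4, WKY 2, WKY 3 or WKY 4 (limma adjusted p from 0.0119 to 0.217). That of Sostdc1 ended in 12 of 22, among them the fits without any 1 array other than SHR 1 or SHR 5 (limma adjusted p from 0.0121 to 0.339). No call was made among 7 ependymal markers, with overlapping sums of 1544 to 1929 in SHR and 1411 to 1666 in WKY. All 7 lay above 0, with a median difference of 0.22, and 3 had an unadjusted p under 0.05. Among 8 markers of meninges and fibroblasts 0 passed and 3 had an unadjusted p under 0.05. Their sums were 577 to 820 in SHR and 650 to 980 in WKY, and 5 of the 8 lay above 0. Of 8 markers of hepatocytes, in which both hydrolases are abundant, 2 were bright enough to be tested and 0 passed (0 with an unadjusted p under 0.05). Their sum was 68.3 to 131 in SHR and 44.1 to 214 in WKY, and the albumin gene Alb was among those too dim to be tested. Ttr, 1 of the 2 tested, is also on the choroid plexus list, so this sum is not particular to hepatocytes. Beside Ephx2, the 5 called microglial markers, Hoxb3, Mobp and Vwf differed between the strains. Prlh, Snap25, Enpp2 and Sostdc1 did so in calls that often ended. The part of these markers in the difference of Ephx2 was not tested.

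The genes that make, release, store or answer to arachidonate epoxides were then read from lists of 145 genes, of which 86 had a probe set bright enough to be tested. Of these 86, 2 were higher in SHR (Pla2g12a and Gnas) and 2 lower (Acsl3 and Plin2), which is 4.65% against 3.97% of all genes (limma, adjusted p below 0.05). A share this near the background is not a result about the pathway as a whole. An unadjusted p under 0.05 was found for 15 of the 86 and for 20.1% of all genes. The median difference of the 86 genes was -0.014, against 0.0020 for all genes. With quantile normalization, 0 of the 86 were higher and 5 lower (Acsl3, Plin2, Pla2g6, Fabp7 and Gstp1).

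The other hydrolases with an epoxide or related substrate did not pass. Lta4h, the bifunctional zinc hydrolase that opens the epoxide of leukotriene A4, had 250.5, 241.5, 248.9, 249.8 and 257.0 on SHR arrays 1 to 5, against 243.1, 228.8, 235.0, 221.7 and 239.6 on WKY arrays 1 to 5. SHR 2 lay below WKY 1, so the groups overlapped by a single array, and the difference was 0.089 ± 0.059 (SE, limma adjusted p = 0.405). Mest, a member of the same alpha/beta hydrolase fold as the epoxide hydrolases, had 46.4 ± 7.64 in SHR and 53.5 ± 7.46 in WKY (difference -0.16 ± 0.12). Ephx4, a close relative with no settled substrate, was too dim to be tested, at 14.6 ± 5.58 in SHR and 15.2 ± 9.49 in WKY. Ephx3 was not analysed here.

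Of the epoxygenases that make EETs and their electron donors, 7 of 14 were tested and 0 passed in limma (0 with an unadjusted p under 0.05). The median difference was 0.14 and 6 of the 7 were above 0, in a range of -0.10 to 0.28. Cyp2c11, a male-specific epoxygenase of rat liver, had signals of 40.2, 48.3, 64.3, 40.03 and 38.5 on SHR arrays 1 to 5, against 32.1, 51.4, 32.3, 26.6 and 34.9 on WKY arrays 1 to 5. WKY 2 stood above all SHR arrays but SHR 3, and the difference of 0.28 ± 0.15 did not pass (adjusted p = 0.295).

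The P450s of the 2J family gave smaller values. Cyp2j3 had 146 ± 18.7 in SHR and 130 ± 10.5 in WKY (difference 0.14 ± 0.088), and its second probe set differed by -0.10 with the opposite sign. Cyp2j4 had 59.5 ± 10.9 in SHR and 52.7 ± 5.86 in WKY (0.13 ± 0.12), a sign that turned with the median-signal covariate. Cyp2j10 had 62.4 ± 13.1 in SHR and 53.3 ± 9.79 in WKY (0.17 ± 0.14). Por, the reductase that supplies electrons to these enzymes, had 174 ± 4.78 in SHR and 188 ± 14.8 in WKY (-0.10 ± 0.070), its dimmer probe set had a difference of 0.15, and neither passed. Cyp2c23, a renal epoxygenase of the rat, was too dim to be tested, at 17.5 ± 7.30 in SHR and 8.41 ± 3.58 in WKY.

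The omega-hydroxylases, which turn arachidonic acid into the vasoconstrictor 20-HETE and inactivate leukotrienes, had 7 tested members of which 0 passed and 2 had an unadjusted p under 0.05 (limma). The median difference was 0.092. The member nearest the threshold was Cyp4f5, with 42.3, 34.1, 48.6, 42.4 and 36.5 on SHR arrays 1 to 5, against 28.1, 34.8, 21.5, 19.1 and 27.1 on WKY arrays 1 to 5. Only SHR 2 lay below a WKY array, and the difference was 0.44 ± 0.14 (adjusted p = 0.0795). Cyp4a3 had 70.6 ± 17.6 in SHR and 61.0 ± 19.9 in WKY (0.18 ± 0.17). Cyp4a8 was too dim, at 30.7 ± 12.7 in SHR and 21.4 ± 7.74 in WKY, and Cyp4a2 was not analysed here.

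Among the enzymes that release arachidonic acid from lipids, 1 of 10 tested was higher in SHR and 0 lower, with a median difference of -0.021. Pla2g12a, a secreted phospholipase A2, had 54.8, 81.3, 82.8, 86.3 and 87.7 on SHR arrays 1 to 5, against 40.9, 42.2, 59.9, 46.7 and 61.1 on WKY arrays 1 to 5. SHR 1 stood apart from the other SHR arrays and within the WKY range. The difference was 0.51 ± 0.13 (adjusted p = 0.0301). This call ended in 11 of 23 alternatives, among them the fits without SHR 2, SHR 3, SHR 4, SHR 5, WKY 1, WKY 2 or WKY 4, with adjusted p from 0.00735 to 0.213.

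Pla2g6, the calcium-independent phospholipase A2, separated the strains without passing. It had 54.8, 49.2, 43.7, 45.2 and 31.8 on SHR arrays 1 to 5, against 65.6, 68.1, 62.2, 69.7 and 56.5 on WKY arrays 1 to 5, and every SHR value lay below every WKY value. The strains did not overlap, in either direction, for 5.76% of all genes. The difference was -0.41 ± 0.12 (adjusted p = 0.0551, and from 0.0184 to 0.178 over 22 alternatives). Pla2g4a, the cytosolic phospholipase A2 that is selective for arachidonate, had 52.1 ± 3.41 in SHR and 61.2 ± 8.76 in WKY (-0.17 ± 0.10). Mgll, which frees arachidonate from the endocannabinoid 2-arachidonoylglycerol, had 141 ± 15.4 in SHR and 143 ± 15.6 in WKY (-0.018 ± 0.090), a sign that turned with the mean of its probe sets and without SHR 1 or WKY 3.

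Of 12 genes of fatty acid re-esterification and binding, 1 was lower in SHR and 0 higher, with a median difference of -0.062. It was Acsl3, an acyl-CoA synthetase of the endoplasmic reticulum and lipid droplets that activates fatty acids for esterification. Acsl3 had 445, 402, 332, 449 and 452 on SHR arrays 1 to 5, against 629, 632, 615, 657 and 711 on WKY arrays 1 to 5. No value overlapped between the strains, and SHR 3 was the lowest of all. The difference was -0.63 ± 0.079 (SE, limma adjusted p = 0.000112), and it passed in 23 of 23 alternatives. Its relative Acsl4, which prefers arachidonate, had 498 ± 44.8 in SHR and 548 ± 39.7 in WKY (-0.13 ± 0.070), and its sign turned with the median-signal covariate. Mboat7, which places arachidonate into phosphatidylinositol, had 713 ± 57.6 in SHR and 759 ± 87.2 in WKY (-0.084 ± 0.079).

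Among the reported effectors of EETs, 1 of 6 tested was higher and 0 lower, with a median difference of 0.064. Gnas, the stimulatory G protein alpha subunit, had 4628, 6016, 6878, 6113 and 5195 on SHR arrays 1 to 5, against 3913, 4656, 4748, 3803 and 4493 on WKY arrays 1 to 5. SHR 1 lay within the WKY range and the others above it. The difference was 0.41 ± 0.095 (adjusted p = 0.0202), and a second probe set was higher by 0.40. The call ended in 8 of 23 alternatives, among them the fits without SHR 2, WKY 1 or WKY 4. With quantile normalization the difference was -0.023 (limma adjusted p = 0.779), the only alternative in which its sign turned. With scaling to a common 75th percentile it was 0.41 (limma adjusted p = 0.0211). Kcnma1, the pore of the large-conductance calcium-activated potassium channel that EETs open in vessels, had 45.2 ± 5.52 in SHR and 49.6 ± 6.47 in WKY (-0.10 ± 0.11). The channel gene Trpv4 (3.40 ± 2.01 in SHR, 2.39 ± 1.54 in WKY) and the nuclear receptor genes Ppara (5.75 ± 6.10 in SHR, 2.67 ± 0.743 in WKY) and Pparg (27.1 ± 6.56 in SHR, 20.1 ± 4.89 in WKY) were too dim to be tested.

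Genes of fatty acid oxidation and peroxisomes that PPAR-alpha is known to drive in liver, as it does Ephx2 there in mouse, held 1 lower and 0 higher member of 20 tested, with a median difference of -0.057. Plin2, a coat protein of lipid droplets, had 144, 142, 139, 149 and 167 on SHR arrays 1 to 5, against 190, 175, 178, 212 and 209 on WKY arrays 1 to 5. Its strains did not overlap, and the difference was -0.34 ± 0.077 (adjusted p = 0.0161). A second probe set differed by -0.16 without passing, and the call ended in 4 of 23 alternatives, among them the fits without WKY 4 or WKY 5 (adjusted p from 0.00995 to 0.473). Cat, the peroxisomal catalase, had 412 ± 20.8 in SHR and 418 ± 34.5 in WKY, a difference of -0.016 ± 0.066 whose sign turned in 5 alternatives. The count for the list uses the brightest probe set of each gene, which for Scp2 differed by 0.00039. A dimmer probe set of Scp2 passed as lower in SHR (714 ± 39.5 in SHR, 833 ± 39.0 in WKY, -0.22, limma adjusted p = 0.0390).

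The list of genes governed by the stress factor NRF2 or by xenobiotic receptors, of which Ephx1 is a classical member in liver, had 22 tested genes and 0 calls in limma, with 5 at an unadjusted p under 0.05 and a median difference of -0.030. Nfe2l2, which encodes NRF2, had 129, 122, 134, 157 and 142 on SHR arrays 1 to 5, against 176, 144, 158, 164 and 176 on WKY arrays 1 to 5. SHR 4 was the only SHR array above a WKY array, and the difference was -0.24 ± 0.081 (adjusted p = 0.111). Nqo1, a quinone reductase and standard NRF2 target, had 215 ± 33.0 in SHR and 242 ± 14.0 in WKY (-0.17 ± 0.088). Hmox1, the inducible heme oxygenase, had 67.1 ± 9.81 in SHR and 64.9 ± 3.56 in WKY (0.033 ± 0.10), with a sign that turned in 3 alternatives.

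**Figure D4:**
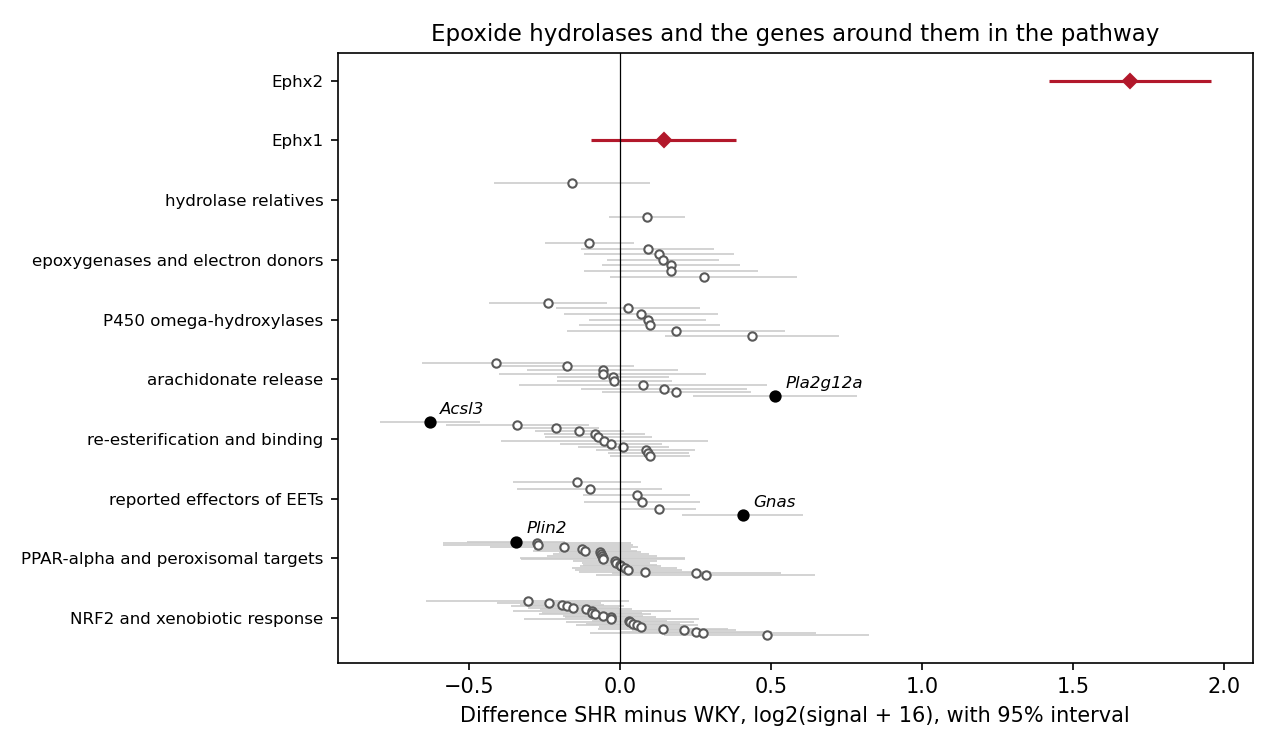
Difference SHR minus WKY on the log2(signal + 16) scale with its 95% interval for Ephx2 and Ephx1 (red diamonds) and for each tested gene of the pathway lists (circles, a band of points for each list). Filled circles passed the test over all probe sets. Ephx2 at 1.69 lies to the right of every listed gene, whose values run from -0.63 (Acsl3) to 0.51 (Pla2g12a).

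The neighbours of the hydrolase genes along their chromosomes were read in the order of the GRCr8 gene table, as the 10 tested genes on each side. Of the 20 tested neighbours of Ephx2, 0 passed in limma, against 3.97% of all genes, and 6 had an unadjusted p under 0.05, against 20.1% of all genes, with a median difference of 0.023 and a range of -0.34 to 0.48. Chrna2, a nicotinic acetylcholine receptor subunit and the next gene in the table, had the largest of these differences. It had 51.1, 43.8, 41.5, 33.1 and 43.3 on SHR arrays 1 to 5, against 24.7, 33.9, 27.0, 17.6 and 26.9 on WKY arrays 1 to 5. SHR 4 lay just below WKY 2 and the other SHR arrays above all WKY arrays. The difference was 0.48 ± 0.14 (adjusted p = 0.0563, and from 0.0301 to 0.475 over 22 alternatives, 5 of which passed).

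The other near neighbours of Ephx2 differed little. Gulo, the enzyme of vitamin C synthesis, had 33.2 ± 6.90 in SHR and 28.4 ± 2.65 in WKY (0.14 ± 0.14). Clu, the secreted chaperone clusterin, had 2059 ± 185 in SHR and 1947 ± 109 in WKY (0.077 ± 0.065), with -0.12 on its second probe set, and the scavenger receptor gene Scara3 had 45.5 ± 8.07 in SHR and 43.1 ± 12.2 in WKY (0.073 ± 0.15). The sign turned under 1 alternative for Gulo, 1 for Clu and 4 for Scara3. On the side of Chrna2, the ubiquitin ligase family gene Trim35 had 1034 ± 42.9 in SHR and 991 ± 45.6 in WKY (0.061 ± 0.054), and the stathmin gene Stmn4 had 662 ± 30.6 in SHR and 718 ± 61.3 in WKY (-0.11 ± 0.064).

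Of the 20 tested neighbours of Ephx1, 0 passed and 3 had an unadjusted p under 0.05 (limma, against the same 3.97% and 20.1% of all genes), with a median difference of -0.027 and a range of -0.28 to 0.33. The nearest were Tmem63a, an ion channel gene of the endoplasmic and plasma membranes (117 ± 9.05 in SHR, 104 ± 12.7 in WKY, difference 0.15 ± 0.089), Sde2 (194 ± 14.1 in SHR, 203 ± 6.67 in WKY, -0.063 ± 0.067) and the Golgi protein gene Acbd3 (162 ± 18.1 in SHR, 200 ± 24.9 in WKY, -0.28 ± 0.092, adjusted p = 0.0964). Dimmer probe sets of Acbd3 differed by 0.10 and 0.33, opposite in sign. On the other side stood the ribosome biogenesis ATPase gene Nvl (72.9 ± 10.5 in SHR, 65.2 ± 4.85 in WKY, 0.12 ± 0.10), Cnih4 (56.8 ± 14.2 in SHR, 66.8 ± 2.87 in WKY, -0.21 ± 0.13) and Wdr26, a subunit of the CTLH ubiquitin ligase (236 ± 11.9 in SHR, 219 ± 11.2 in WKY, 0.10 ± 0.064).

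**Figure D5:**
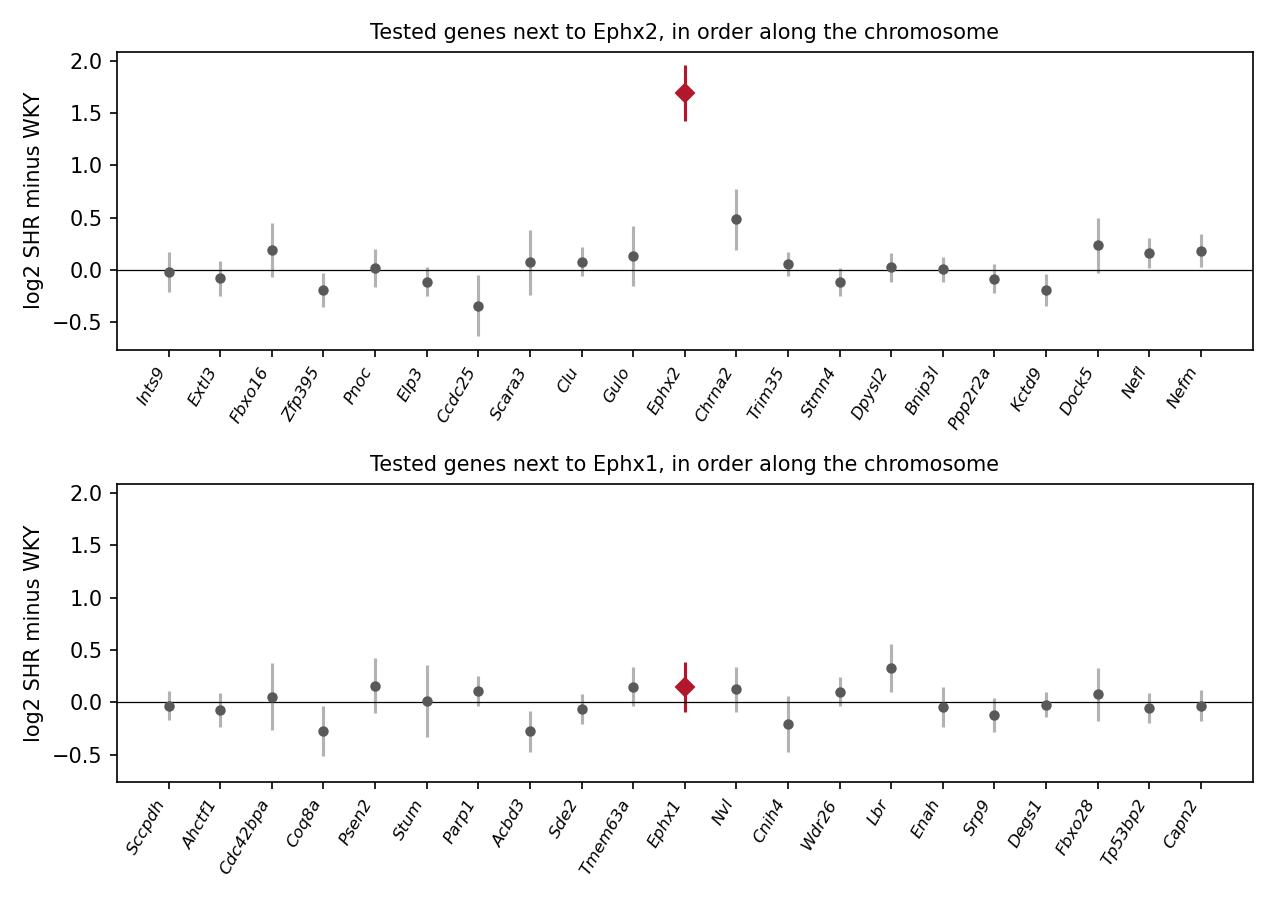
Difference SHR minus WKY (log2 of signal + 16) with its 95% interval for the 10 tested genes on each side of Ephx2 (top) and Ephx1 (bottom), in chromosomal order and not to scale along the chromosome. The red diamond is the hydrolase gene. The neighbours of Ephx2 run from -0.34 (Ccdc25) to 0.48 (Chrna2), below the 1.69 of Ephx2 itself. A second probe set of Ccdc25, not drawn, differed by 0.28.

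The genes whose profile over the 10 arrays was most like that of Ephx2, by Pearson correlation of log2 values, were Txndc5 (0.982), Zfp597 (0.981), Atpaf2 (0.980), B9d1 (0.975) and Dlgap4 (0.969). All 5 had every SHR value above every WKY value, as had Ephx2, so these correlations rest largely on the strain split. Txndc5, a protein disulfide isomerase of the endoplasmic reticulum, had 395, 363, 388, 410 and 389 on SHR arrays 1 to 5, against 271, 261, 250, 261 and 251 on WKY arrays 1 to 5. SHR 2 was the lowest and SHR 4 the highest SHR array, as for Ephx2. After strain means were removed, the correlation with Ephx2 was 0.53 for Txndc5, 0.42 for the zinc finger gene Zfp597, 0.76 for Atpaf2, an assembly factor of ATP synthase, 0.74 for B9d1, a protein of the ciliary transition zone, and 0.32 for Dlgap4, a postsynaptic scaffold.

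Within strains the genes most like Ephx2 were others. With strain means removed the highest correlations were those of Abi1 (0.968), an adaptor of actin assembly, Aldh6a1 (0.952), a mitochondrial dehydrogenase of valine breakdown, Gtf3c3 (0.951), a subunit of a transcription factor of RNA polymerase III, Bet1 (0.927), a vesicle fusion protein, and Kdm5a (0.927), a histone demethylase. Without that removal, their correlations with Ephx2 ran from -0.47 (Bet1) to -0.14 (Gtf3c3). Their strain differences ran from -0.16 (Bet1) to -0.070 (Abi1), opposite in sign to that of Ephx2, and none passed in limma.

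For Ephx1 the most alike genes over the 10 arrays were Stard3nl (0.932), a late endosomal tether, Ncor1 (0.924), a nuclear receptor corepressor, Cnnm1 (0.918), Tmem181 (0.917) and Kank2 (0.916). With strain means removed they were Slc49a4 (0.936), Unc93b1 (0.929), which escorts Toll-like receptors to endosomes, Stard3nl (0.918), Ncor1 (0.912) and P2ry6 (0.912), a receptor for UDP. None of these 8 genes passed the strain test in limma, their adjusted p running from 0.153 (Slc49a4) to 0.805 (Unc93b1). These correlations were picked as the highest among all tested genes over 10 arrays that share their scaling, and are a description.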

How the data were processed

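RNA of the NTS was amplified (MessageAmp II) for 1-colour hybridisation, per the labels' protocols. GCOS 1.2 is named in the submitters' processing notes, and the deposited intensity of each probe set is linear. The background step and summarisation are not given in the sources used. On every array the mean is 100 after trimming 2% at each end, which is read from the values as the scaling by the authors.

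Samples were grouped by title, the unnumbered one of each strain being called 1. Values were analysed as log2(signal + 16) without further normalization. After removal of 57 control probe sets, a probe set was kept if 5 of 10 arrays reached their 40th percentile (18846 of 31042). limma 3.58.1 (R 4.3.3) was fitted with strain as the single term and an intensity trend, with Benjamini-Hochberg adjustment over all kept probe sets. The model was tested on simulated data. A gene was represented by its brightest kept probe set. Entrez identifiers linked the platform's symbols to current ones in RefSeq's GRCr8 gene table (20826 probe sets with 1 symbol, 436 with several, 9780 with none). Chromosome and start position in that table were used only to put the neighbours in order.

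Members and lists were chosen with earlier results of these data known. Named were both hydrolases, a listed set of pathway genes, pathway and marker genes past the threshold, the 3 nearest tested neighbours on each side, and the 5 most correlated genes. Mest, Ccdc25, Tlx3, Alb, Th, Dbh, Mbp, Pecam1, Cx3cr1, Scp2, Ttr and genes that passed under an alternative alone were named after their values were seen.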

Additional observations from a re-analysis of the deposited data

Results flagged for a closer look

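Dixon's test on the 5 signals of a strain, applied to 132 groups (66 named genes in each strain), set apart 4 arrays at the 95% level, and chance sets apart about 1 in 20 groups. Neither Ephx2 nor Ephx1 was among them. Pla2g12a stood at 54.8 on SHR 1, against 81.3 to 87.7 on the other SHR arrays. C1qa, the complement component of microglia, stood at 499 on WKY 2, against 596 to 624 on the other WKY arrays. Sostdc1, a choroid plexus marker, stood at 33.3 on WKY 5, against 27.2 to 28.1 on the others. Stard3nl, the gene most correlated with Ephx1, stood at 479 on WKY 3, against 538 to 554 on the others.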

How the results depend on the processing

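Arrays were also scaled by quantiles or by their 75th percentile, the offset set to 1 or 64, the filter dropped or raised to percentile 60, and the fit run without trend, robustly, with array weights, with a replicate block, with the median signal as a covariate, and without single arrays. Ephx2 differed by 2.20 with offset 1 and 1.01 with offset 64, by construction, and by 1.62 to 1.79 with 1 array left out. Ephx1 ran from 0.070 to 0.23 with 1 array left out. The count of probe sets past the threshold (803) was 1214 with the replicate block, 206 with the covariate, 512 without SHR 2 and SHR 3, and 480 to 976 with 1 array left out (480 without WKY 4, 481 without WKY 5). The count of pathway genes (4 of 86) was 2 of 121 without a filter, 7 with the block, 2 with the covariate, 1 without SHR 2 and SHR 3, and 1 to 5 with 1 array left out (2 without SHR 2 or WKY 1, 1 without WKY 4). Of 40 neighbours, 0 passed, but 1 did without the trend and 1 with array weights (Chrna2), 2 with the block (Chrna2, Acbd3), 2 with the covariate (Nefl, Nefm), and 0 to 1 with 1 array left out (Chrna2 without SHR 4 or WKY 2, Lbr without SHR 5). The cause was not tested.

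The labels give no basis for pairing arrays by replicate number, and not every same-numbered pair deviated together: the 5 correlations of deviations from strain means ran from 0.038 to 0.28, and 3 of 5 SHR arrays correlated best with their own number, a hint from the data alone. With the replicate block the differences of Ephx2 (1.69) and Ephx1 (0.14) stayed the same by construction, as each number occurs once in each strain. Only their SE could move, to 0.10 for Ephx2 and 0.11 for Ephx1.

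Signs turned as follows. With quantile normalization Cat differed by 0.039, Hmox1 by -0.029, Gnas by -0.023 and Scara3 by -0.037. With the covariate Cyp2j4 differed by -0.11, Acsl4 by 0.039, Cat by 0.095, Hmox1 by -0.024, Gulo by -0.017, Scara3 by -0.24, Cnih4 by 0.0051, Abi1 by 0.00069 and Gtf3c3 by 0.016. With the mean of a gene's probe sets Por differed by 0.025, Mgll by 0.082, Clu by -0.022, Acbd3 by 0.052 and Ncor1 by -0.040. With 1 array left out the differences were 0.041 (without SHR 1) and 0.029 (without WKY 3) for Mgll, 0.0082 (SHR 1), 0.016 (WKY 4) and 0.0056 (WKY 5) for Cat, -0.028 (SHR 3) for Hmox1, -0.031 (WKY 5) for Scara3 and 0.0053 (SHR 5) for Unc93b1. Over these fits Mgll ran from -0.065 to 0.041, Cat from -0.052 to 0.016, Hmox1 from -0.028 to 0.081, Scara3 from -0.031 to 0.18 and Unc93b1 from -0.090 to 0.0053. Scara3 differed by -0.041 without SHR 2 and SHR 3. Only Gnas among these had passed. A single probe set for each hydrolase, low WKY signal of Ephx2 and 5 arrays a strain limit what can be read from these values. Probe sets of the same gene can differ, as those of Mobp did (-0.34, -1.41 and -0.022). How far the difference of Ephx2 depends on its probes was not tested.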
